A study of Mus musculus with 96 samples.

Results

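Interscapular brown adipose tissue (iBAT), the heat-producing fat depot between the shoulder blades, was compared between wild-type mice kept at 20 °C and wild-type mice kept at 30 °C. The 16 libraries were taken from the 96 of the study by their labels (iBAT, wild-type genotype, control diet), 8 at each temperature. All animals were male C57BL/6J mice that ate the control diet, in which fat supplied 13% of the energy, for 4 weeks. Their age is not given in the labels. The design counts 8 animals in a group, and each library was treated as a separate animal. A temperature of 30 °C is thermoneutral for mice, so that no extra heat has to be made, and 20 °C is a mild cold load. Libraries from 3 further settings of the same strain, sex and duration served for comparison: iBAT of Ucp1-KO mice on control diet at both temperatures (8 and 8 libraries), inguinal white adipose tissue (iWAT) of wild-type mice on control diet at both temperatures (8 and 8), and iBAT of wild-type mice on a high fat diet at 30 °C (48% of the energy from fat, 8 libraries). How the Ucp1 allele was disrupted is not given in the labels.

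In the cold, sympathetic nerves release noradrenaline in brown fat, β-adrenergic receptors raise cyclic AMP, and protein kinase A starts lipolysis. The released fatty acids activate uncoupling protein 1 (Ucp1), which lets protons back into the mitochondrial matrix so that respiration makes heat in place of ATP. The tissue refills its lipid droplets by taking up glucose and lipoprotein lipid and by making fatty acids from glucose. In textbook accounts cold also raises the RNA of Ucp1, of the coactivator Ppargc1a and of the thyroid hormone deiodinase Dio2.

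Levels are RPKM, reads scaled to transcript length and to the reads of the library, so that genes can be compared per length. The number of reads recovered from the spacing of low values was 9.465 to 13.32M per library at 20 °C (median 11.35) and 9.309 to 13.72M at 30 °C (median 11.15). A single read on a 1 kb transcript stood for 0.0729 to 0.107 RPKM. Correlations of log2 values were 0.960 to 0.989 between libraries of the same temperature and 0.935 to 0.973 between libraries of different temperatures. The brown fat markers Ucp1, Cidea, Cox8b, Cox7a1, Dio2, Elovl3 and Zic1 were higher in each of the 16 iBAT libraries than in each of the 16 wild-type iWAT libraries, whereas Prdm16, Ebf2 and Lhx8, counted as brown markers too, overlapped between the depots, and the median of Lhx8 was lower in iBAT (1.60 against 2.13 RPKM). The inguinal markers Hoxc9 and Hoxc10 stayed at or below 0.160 and 0.107 RPKM in iBAT, and the white fat markers Lep and Retn were lower in each iBAT library than in each iWAT library, but Nnat overlapped (1.56 to 65.7 RPKM against 47.2 to 919.1) and so did Agt. Skeletal muscle markers varied from library to library, from 118.4 to 4522 RPKM in sum at 20 °C and from 96.2 to 4656 RPKM at 30 °C, and 0 of the 14 tested were called. B cell markers summed to 2.33 to 9.54 RPKM at 20 °C and 4.69 to 65.4 RPKM at 30 °C, with the highest sums in libraries 21 (65.4) and 18 (32.7). In these bulk samples, fewer cells of a type and less RNA per cell cannot be told apart. Ucp1 itself was lower in the libraries labelled 20 °C, opposite to the textbook response, and the groups are used here as labelled.

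**Figure D1:**
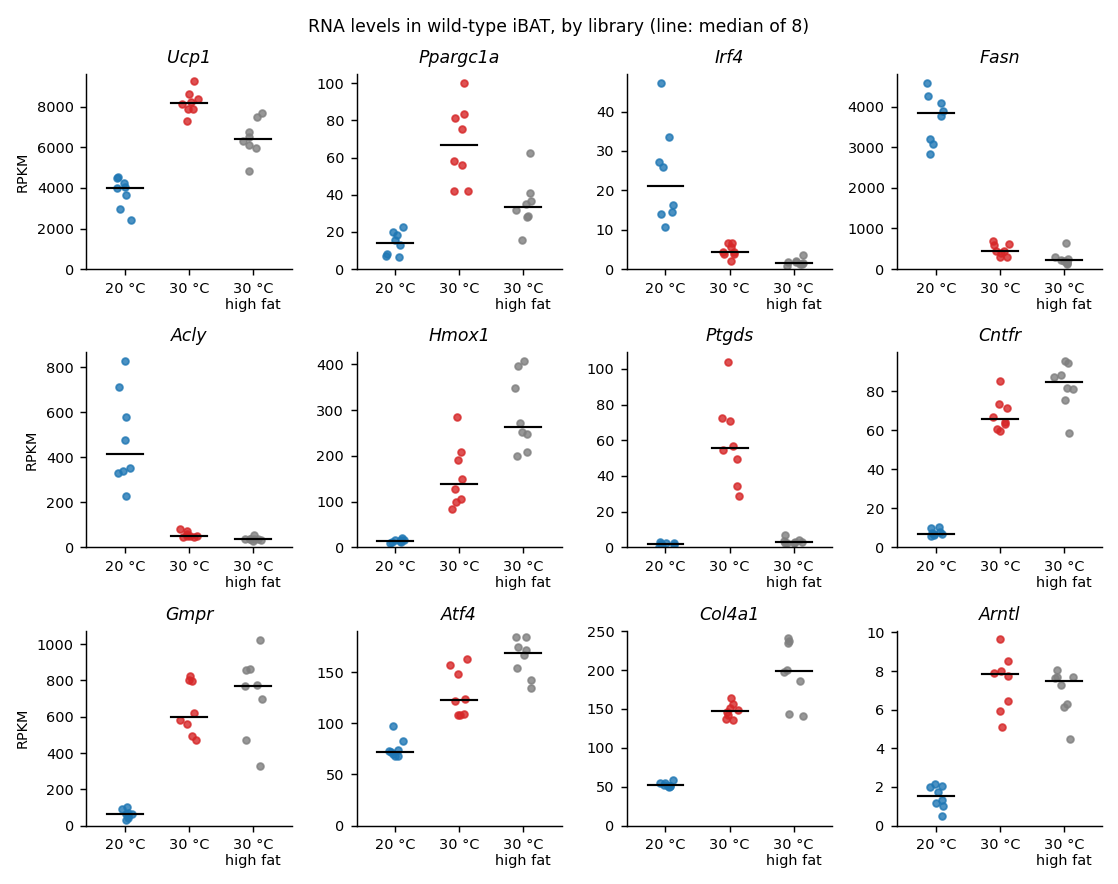
RNA levels in RPKM (vertical axes, linear, from 0) of 12 genes in each library of wild-type iBAT: from left to right the 20 °C group, the 30 °C group and the 30 °C group fed high fat (8 libraries each, line at the median). Ucp1 lay between 2428 and 4550 RPKM at 20 °C and between 7328 and 9281 RPKM at 30 °C on control diet. For each of the 12 genes the 20 °C and 30 °C libraries on control diet did not overlap. Among all genes tested 4.10% lay wholly higher at 20 °C and 13.1% wholly lower.

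Many more genes were lower than higher at 20 °C. Of 14807 genes tested with limma, 1723 were called higher at 20 °C, which is 11.6% of them, and 4887 were called lower, which is 33.0%, at an adjusted p of 0.05 (Benjamini-Hochberg over all genes tested). All 8 libraries at 20 °C lay above all 8 at 30 °C for 607 genes (4.10%) and below them for 1939 genes (13.1%). The median change of all genes was -0.12 on the log2(RPKM + 1) scale, taken as 20 °C minus 30 °C, the scale and direction used for every change below. The excess of lower genes depended on the scaling: 26.1% of the 6610 calls were higher with the deposited values, and 50.0% after median-ratio scaling, where 3075 genes were higher and 3076 lower (20.8% and 20.8%), with a median change of -0.01. Without the 7 libraries with over 1000 RPKM of muscle markers in sum, 4 at 20 °C and 3 at 30 °C, 1114 genes were higher and 2668 lower. A few transcript classes hold much of the RPKM: transcripts of the mitochondrial genome took 18.2 to 19.8% of the summed RPKM at 20 °C and 12.3 to 18.7% at 30 °C.

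**Figure D2:**
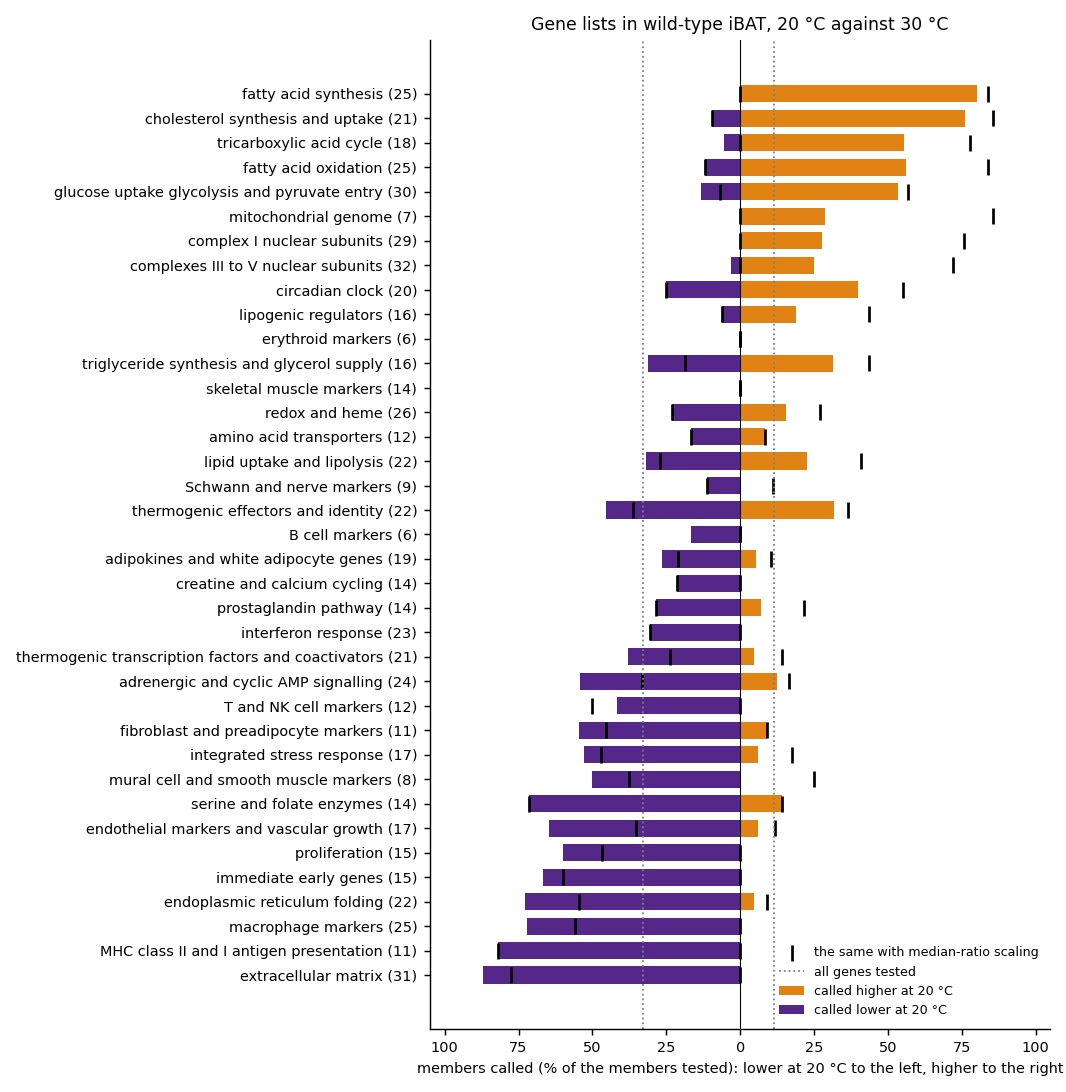
Share of the tested members of each gene list (number tested in parentheses) called higher at 20 °C (to the right) and lower at 20 °C (to the left), in percent, with black ticks for the same shares after median-ratio scaling and dotted lines for all genes tested. Fatty acid synthesis (20 of 25 higher) and cholesterol synthesis and uptake (16 of 21 higher) stand at the top, and extracellular matrix (27 of 31 lower) stands at the bottom.

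The genes that define the brown adipocyte moved in both directions. Of 22 thermogenic effectors and identity genes, 7 rose, 10 fell and 5 were not called, with a median change of -0.21, and without the 7 muscle-rich libraries 2 rose and 6 fell. Among all genes 11.6% rose and 33.0% fell, with a median change of -0.12. Ucp1 (Entrez gene 22227) ran from 2428 to 4550 RPKM at 20 °C (median 4016) and from 7328 to 9281 RPKM at 30 °C (median 8200). No library at 20 °C reached the lowest library at 30 °C. The ratio of the means was 2.17 in favour of 30 °C, and the change was -1.14 ± 0.12 (SE, n = 8 and 8, adjusted p = 3.1e-10). With median-ratio scaling it was -0.98. Ucp1 took 0.599 to 1.11% of the summed RPKM at 20 °C and 1.87 to 2.30% at 30 °C. On the high fat diet at 30 °C the median was 6413 RPKM, between the medians of the control diet groups.

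Dio2, which activates thyroid hormone, had a median of 128.2 RPKM at 20 °C and 185.7 RPKM at 30 °C with overlapping ranges, and its fall of -0.59 ± 0.19 (adjusted p = 0.0081) was not called with median-ratio scaling (-0.43). Gyk, the glycerol kinase that lets brown fat re-use glycerol, fell from a median of 285.4 to 111.4 RPKM with groups that did not overlap (-1.31 ± 0.13, adjusted p = 9.3e-11). Pdk4, the kinase that shuts pyruvate dehydrogenase, fell from 1211 to 664.0 RPKM (-0.89 ± 0.11, adjusted p = 4.8e-09), again without overlap. Other effectors of the same cell rose. Elovl3, the elongase of very long fatty acids that marks active brown fat, had a median of 283.2 RPKM at 20 °C and 130.8 RPKM at 30 °C (0.88 ± 0.29, adjusted p = 0.011). The respiratory chain isoforms of brown fat and muscle rose too, Cox8b by 0.52 ± 0.17 (adjusted p = 0.012) and Cox7a1 by 0.51 ± 0.15 (adjusted p = 0.0061), each with overlapping groups. Cidea, a lipid droplet protein, rose by 0.32 ± 0.14 (adjusted p = 0.049). Neither Cox8b nor Cidea was called with quantile normalization. Without the 7 muscle-rich libraries none of Dio2, Elovl3, Cox8b, Cox7a1 and Cidea was called (-0.58, 0.91, 0.46, 0.42 and 0.40, adjusted p = 0.087, 0.1, 0.14, 0.14 and 0.12). Ntrk3, a neurotrophin receptor, was the effector list's most significant rise, from 7.28 to 15.5 RPKM at 30 °C to 20.8 to 38.8 RPKM at 20 °C (1.35 ± 0.13, adjusted p = 7.4e-12). Acot11, an acyl-CoA thioesterase of brown fat that was named after its values were seen, rose from a median of 55.6 to 164.3 RPKM (1.56 ± 0.28, adjusted p = 1.1e-05).

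Of 21 transcriptional regulators 1 was higher and 8 lower (median change -0.17), against 11.6% higher and 33.0% lower and a median of -0.12 among all genes, and 3 were higher and 5 lower with median-ratio scaling. Ppargc1a (Entrez gene 19017), the coactivator that drives mitochondrial genes and Ucp1, lay between 6.66 and 22.8 RPKM at 20 °C (median 14.1) and between 41.9 and 100.3 RPKM at 30 °C (median 66.9). The groups did not overlap, the ratio of means was 4.86, and the change was -2.26 ± 0.24 (adjusted p = 1.8e-10). Its relative Ppargc1b fell less, from a median of 25.2 to 18.5 RPKM (-0.47 ± 0.12, adjusted p = 0.0013), and was not called with median-ratio scaling (-0.31). Among nuclear receptors, Ppara fell by 0.70 ± 0.14 (adjusted p = 7.8e-05) without overlap and Esrrg by 0.65 ± 0.15 (adjusted p = 0.0005) with overlap, whereas Esrra (-0.14 ± 0.12, adjusted p = 0.34) and Pparg (-0.11 ± 0.08, adjusted p = 0.3) were not called. Ebf2, which marks brown precursors, fell by 0.46 ± 0.09 (adjusted p = 2.5e-05), and Prdm16, which sets brown identity, was not called (-0.19 ± 0.10, adjusted p = 0.11). The only riser was Irf4, an interferon regulatory factor that partners Ppargc1a and is induced by fasting and cyclic AMP in fat. It lay between 10.8 and 47.2 RPKM at 20 °C (median 21.1) and between 2.05 and 6.62 RPKM at 30 °C (median 4.33), a ratio of means of 5.11 and a change of 2.03 ± 0.26 (adjusted p = 2.2e-08). Irf4 and Ppargc1a stood at opposite ends of the same list, each with groups that did not overlap.

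Receptors and the cyclic AMP pathway showed 3 members higher and 13 lower of 24 (median change -0.29), and 4 higher and 8 lower with median-ratio scaling and 7 lower without the 7 muscle-rich libraries. Among all genes 11.6% were higher and 33.0% lower (median change -0.12), and 20.8% each way with median-ratio scaling. The β-adrenergic receptors of the adipocyte were not called: Adrb3 had a median of 65.1 RPKM at 20 °C and 52.3 RPKM at 30 °C (0.26 ± 0.19, adjusted p = 0.27), and Adrb1 of 10.9 and 12.0 RPKM (-0.30 ± 0.17, adjusted p = 0.16). The α1-receptor Adra1a fell from 47.8 to 57.0 RPKM at 30 °C to 26.3 to 38.8 RPKM at 20 °C (-0.73 ± 0.10, adjusted p = 6.4e-08). Adenylyl cyclases fell, Adcy4 from a median of 11.4 to 4.93 RPKM (-1.07 ± 0.11, adjusted p = 6.5e-11) and Adcy3 from 152.5 to 118.2 RPKM (-0.49 ± 0.12, adjusted p = 0.00062). Adcy3 was not called without the 7 muscle-rich libraries. The regulatory subunits of protein kinase A went apart: Prkar1a fell by 0.66 ± 0.07 (adjusted p = 5.5e-11) without overlap, and Prkar2b, the main adipocyte form, rose by 0.37 ± 0.08 (adjusted p = 0.00026). The cyclic AMP phosphodiesterase Pde4b fell from a median of 5.25 to 2.12 RPKM (-0.98 ± 0.14, adjusted p = 2.1e-07). Rgs2, which dampens G protein signals and was named after its values were seen, was also called higher (1.40 ± 0.30, adjusted p = 0.00017). Gpr3, a constitutively active receptor reported to rise in cold-exposed brown fat of mice, stayed at or below 0.435 RPKM in all 16 libraries. It was called lower at 20 °C (-0.25 ± 0.08, adjusted p = 0.0096), but it entered the test only through other iBAT groups that reached 0.5 RPKM. The call was lost without the 7 muscle-rich libraries and with quantile normalization, so a change of Gpr3 near 0 RPKM is uncertain.

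Fatty acid synthesis had the highest share of members called higher of the 37 lists with a tested member. Of its 25 tested genes 20 rose and 0 fell, against 11.6% higher among all genes, and for 16 of them every library at 20 °C lay above every library at 30 °C, against 4.10% of all genes. The median change was 1.05, and 1.22 with median-ratio scaling. The pathway carries citrate out of mitochondria, splits it to acetyl-CoA, carboxylates that to malonyl-CoA and builds palmitate, using NADPH from malic enzyme and the pentose phosphate pathway. Acly (Entrez gene 104112), ATP citrate lyase, ran from 227.4 to 826.1 RPKM at 20 °C (median 413.9) and from 43.8 to 79.4 RPKM at 30 °C (median 50.3), a ratio of means of 8.43 and a change of 2.96 ± 0.27 (adjusted p = 2.4e-12). The citrate carrier Slc25a1, named after its values were seen, had medians of 379.2 and 109.0 RPKM (1.81 ± 0.19, adjusted p = 1.2e-10). Acaca, acetyl-CoA carboxylase, had medians of 497.7 and 111.0 RPKM (2.20 ± 0.23, adjusted p = 1.5e-10). Fasn (Entrez gene 14104), fatty acid synthase, ran from 2834 to 4578 RPKM at 20 °C (median 3834) and from 299.8 to 692.5 RPKM at 30 °C (median 450.1), a ratio of means of 7.81 and a change of 3.01 ± 0.30 (adjusted p = 3.0e-11). Its level at 20 °C was of the same order as that of Ucp1 in the same libraries, and it was 0.601 to 1.13% of the summed RPKM there against 0.0749 to 0.172% at 30 °C.

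The reactions around the synthase moved with it. Me1, malic enzyme, which makes NADPH, rose by 1.75 ± 0.20 (adjusted p = 1.7e-09), and so did Tkt and Taldo1 of the non-oxidative branch of the pentose phosphate pathway, which makes none (1.02 ± 0.17 and 1.05 ± 0.12, adjusted p = 1.9e-06 and 2.4e-09, both named after their values were seen). Thrsp, a small lipogenic protein of adipose tissue and liver, rose from a median of 483.5 to 1781 RPKM (1.83 ± 0.22, adjusted p = 5.3e-09). Aacs, which returns acetoacetate to the cytosolic acyl-CoA pool, lay between 59.5 and 96.1 RPKM at 20 °C and between 12.6 and 19.2 RPKM at 30 °C (2.30 ± 0.17, adjusted p = 5.6e-15). Elovl6, which lengthens palmitate, rose by 1.15 ± 0.15 (adjusted p = 3.2e-08). The desaturases split. Scd2 rose from a median of 6.90 to 37.2 RPKM (2.43 ± 0.20, adjusted p = 1.3e-13), whereas Scd1, by far the more abundant desaturase with medians of 14410 RPKM at 20 °C and 12470 RPKM at 30 °C, was not called (0.29 ± 0.20, adjusted p = 0.24). Summed over the list, levels ran from 21480 to 31830 RPKM at 20 °C and from 11850 to 17260 RPKM at 30 °C, and Scd1 made up much of both sums. On the high fat diet at 30 °C the medians of Fasn and Acly were 214.9 and 35.9 RPKM, below those of the control diet at 30 °C.

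**Figure D3:**
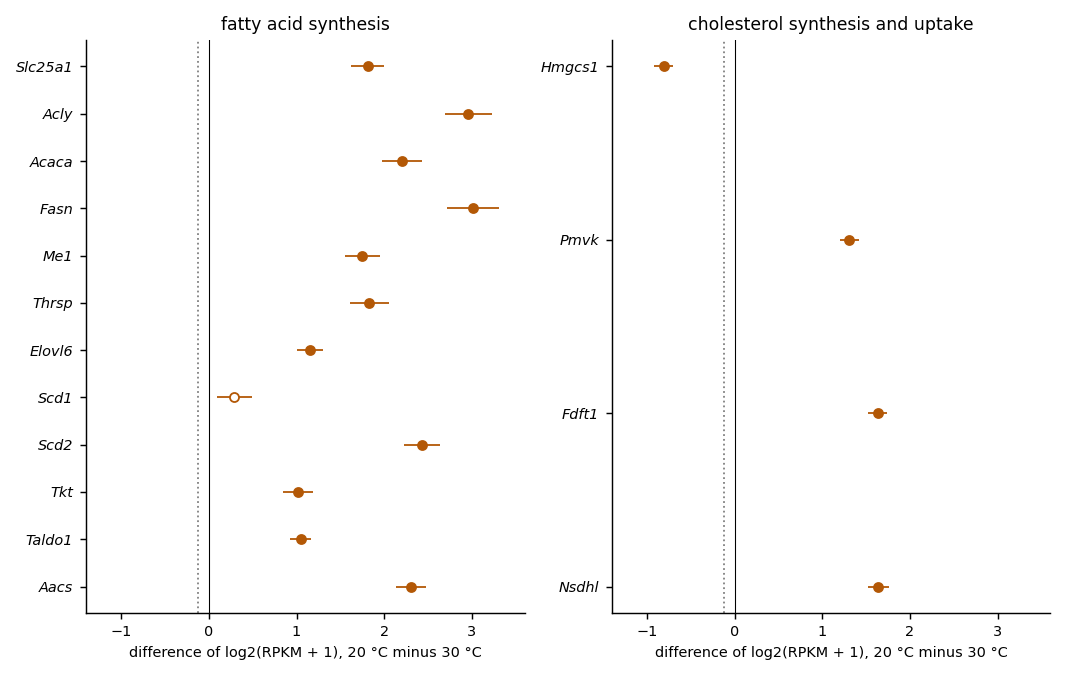
Change (difference of log2(RPKM + 1), 20 °C minus 30 °C, with the SE as a bar) of the tested genes of fatty acid synthesis and of cholesterol synthesis and uptake that the text names, in wild-type iBAT, 8 libraries against 8. Filled points were called, open points were not, and the dotted line is the median change of all genes (-0.12). Fasn and Acly lie farthest to the right, at 3.01 and 2.96, and Hmgcs1 (-0.81) is the only filled point to the left of 0.

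The known switches of lipogenesis changed much less than the enzymes: 3 of 16 regulators rose and 1 fell, 7 and 1 with median-ratio scaling. The shares of all genes were 11.6% and 33.0%, and 20.8% each way with median-ratio scaling. Srebf1, the sterol-response factor that drives lipogenic enzymes, lay between 46.3 and 73.6 RPKM at 20 °C and between 27.3 and 41.0 RPKM at 30 °C (0.72 ± 0.14, adjusted p = 3.6e-05). Mlxipl, the glucose-responsive factor ChREBP, had medians of 72.8 and 62.6 RPKM (0.20 ± 0.09, adjusted p = 0.055), and the oxysterol receptor Nr1h3 of 41.2 and 40.7 RPKM (-0.04 ± 0.09, adjusted p = 0.78). Neither was called, although Mlxipl was with median-ratio scaling (0.37). Insig1, which holds the sterol-response factors in the endoplasmic reticulum and is itself a target of theirs, rose from a median of 20.9 to 69.5 RPKM without overlap (1.70 ± 0.14, adjusted p = 8.3e-14). Lpin1 rose by 0.49 ± 0.11 (adjusted p = 0.00035), and Rxrg, a retinoid X receptor, fell by 0.80 ± 0.14 (adjusted p = 4.6e-06).

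Genes of cholesterol synthesis and uptake were mostly higher. Of 21 genes 16 rose and 2 fell, against 11.6% and 33.0% of all genes, with a median change of 0.88. For 14 every library at 20 °C lay above every library at 30 °C, against 4.10% of all genes. Hmgcs1, HMG-CoA synthase, was among those that fell and lay between 45.1 and 73.5 RPKM at 20 °C and between 81.7 and 111.9 RPKM at 30 °C (-0.81 ± 0.11, adjusted p = 2.7e-08). The other enzymes named here went the other way. Pmvk, phosphomevalonate kinase, rose from a median of 23.1 to 58.7 RPKM (1.31 ± 0.11, adjusted p = 5.2e-13). Fdft1, squalene synthase, rose from 9.05 to 28.0 RPKM (1.63 ± 0.11, adjusted p = 1.5e-15), and Nsdhl, a sterol dehydrogenase that helps to remove methyl groups, from 9.03 to 27.6 RPKM (1.64 ± 0.12, adjusted p = 1.5e-15). Idi1 stayed at or below 0.700 RPKM and did not enter the test. A sterol regulatory element in its strict form, TCACNCCAC on either strand, was present within 250 bases before the start site of 1 of 15 members with a window (Hmgcs1, 6.67%) and of 1.04% of 27025 windows of the genome. In the fatty acid synthesis list it was present in 0 of 22 members with a window.

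Glycerolipid assembly and its glycerol supply went in both directions, with 5 of 16 higher and 5 lower, 7 and 3 with median-ratio scaling and 3 lower without the 7 muscle-rich libraries. The share that fell was near the 33.0% of all genes, of which 11.6% rose (20.8% each way with median-ratio scaling). Dgat2, which esterifies newly made fatty acids, rose from 311.5 to 441.9 RPKM at 30 °C to 736.2 to 1402 RPKM at 20 °C (1.41 ± 0.18, adjusted p = 2.7e-08), whereas Dgat1 was not called (-0.20 ± 0.14, adjusted p = 0.27). Gpd1, which makes glycerol phosphate from glycolysis, rose from a median of 2194 to 3261 RPKM (0.59 ± 0.11, adjusted p = 2.5e-05), and Agpat2 from 839.1 to 1166 RPKM (0.54 ± 0.16, adjusted p = 0.0055; 0.59, adjusted p = 0.054, without the muscle-rich libraries). Neither Gpd1 nor Agpat2 was called with quantile normalization. Besides Gyk, the glycerol channel Aqp7 fell from 95.5 to 111.0 RPKM at 30 °C to 50.7 to 67.0 RPKM at 20 °C (-0.79 ± 0.07, adjusted p = 3.0e-12). Pck1, the glyceroneogenic enzyme, was not called (0.08 ± 0.12, adjusted p = 0.62). Gpam, the first acyltransferase, fell by 0.35 ± 0.13 (adjusted p = 0.026), and was not called with median-ratio scaling (-0.18) or without the 7 muscle-rich libraries.

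In lipid uptake and lipolysis 5 of 22 genes rose and 7 fell, and 9 rose and 6 fell with median-ratio scaling. The share that fell with the deposited values was near the 33.0% of all genes. Among all genes 11.6% rose, and 20.8% went each way with median-ratio scaling. Pnpla2, the first triglyceride lipase, had medians of 1382 and 1246 RPKM (0.19 ± 0.09, adjusted p = 0.086), Lipe, hormone-sensitive lipase, of 437.0 and 387.4 RPKM (0.14 ± 0.08, adjusted p = 0.12), and both were called higher with median-ratio scaling (0.36 and 0.31). The change of Pnpla2 turned negative with quantile normalization. G0s2, an inhibitor of Pnpla2, and the droplet coat Plin1 were not called (changes of -0.04 and 0.02). The lipase coactivator Abhd5 fell by 0.52 ± 0.07 (adjusted p = 1.5e-07) without overlap. Plin2, a droplet coat whose level follows lipid load, fell from a median of 536.8 to 361.0 RPKM (-0.75 ± 0.14, adjusted p = 1.5e-05). Lipoprotein lipase, Lpl, was not called (-0.09 ± 0.14, adjusted p = 0.65), and its inhibitor Angptl4 fell from a median of 148.8 to 85.7 RPKM (-0.83 ± 0.10, adjusted p = 1.2e-08). The fatty acid transporter Cd36 fell by 0.49 ± 0.07 (adjusted p = 4.9e-08).

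Of 30 genes of glucose uptake, glycolysis and pyruvate entry 16 rose and 4 fell, with a median change of 0.28, and 2 fell with median-ratio scaling and without the 7 muscle-rich libraries. Among all genes 11.6% rose and 33.0% fell, and 20.8% fell with median-ratio scaling. The insulin-regulated transporter Slc2a4 (Glut4) lay between 156.7 and 202.9 RPKM at 20 °C and between 101.9 and 131.0 RPKM at 30 °C (0.65 ± 0.10, adjusted p = 1.5e-06), and the ubiquitous Slc2a1 was not called (-0.19 ± 0.11, adjusted p = 0.16). Hk2, which traps glucose, rose by 0.35 ± 0.12 (adjusted p = 0.015; 0.38, adjusted p = 0.097, without those libraries), and the liver-type phosphofructokinase Pfkl from a median of 116.9 to 217.3 RPKM (0.87 ± 0.09, adjusted p = 2.7e-10). Pkm and Ldha, which make pyruvate and lactate, rose by 0.65 ± 0.14 and 0.76 ± 0.11 (adjusted p = 0.0002 and 5.1e-07). The RNA of Mpc1, of the mitochondrial pyruvate carrier, rose by 0.61 ± 0.10 (adjusted p = 1.8e-06) and that of Pdha1, of pyruvate dehydrogenase, by 0.49 ± 0.08 (adjusted p = 4.1e-06). Of the kinases that restrain pyruvate dehydrogenase, Pdk1 rose by 0.88 ± 0.10 (adjusted p = 3.6e-10) while Pdk4, described above, fell. Pfkm, the muscle form, ran from 17.7 to 77.0 RPKM at 30 °C and from 23.5 to 80.4 RPKM at 20 °C, a spread within each group that the muscle markers share. The Gapdh row of the table held only 2.08 to 7.39 RPKM and is uncertain, since near-identical copies share its reads.

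In fatty acid oxidation 14 of 25 genes rose and 3 fell (median change 0.25), 21 and 3 with median-ratio scaling and 7 and 3 without the 7 muscle-rich libraries. The shares of all genes were 11.6% and 33.0%, and 20.8% each way with median-ratio scaling. Cpt2, the inner carnitine palmitoyltransferase, rose from 120.6 to 166.6 RPKM at 30 °C to 239.0 to 303.2 RPKM at 20 °C (0.94 ± 0.09, adjusted p = 1.7e-11). Acadm, the medium-chain dehydrogenase, rose by 0.77 ± 0.09 (adjusted p = 1.4e-09) and Hadha of the trifunctional protein by 0.51 ± 0.07 (adjusted p = 1.5e-08). The 3 that fell were Cpt1a, the minor entry enzyme of brown fat (-0.62 ± 0.11, adjusted p = 1.6e-05), the peroxisomal Ehhadh (-0.95 ± 0.14, adjusted p = 4.3e-07, named after its values were seen) and the thioesterase Acot2 (-1.28 ± 0.17, adjusted p = 2.6e-08). Cpt1b, the main entry enzyme, was not called (0.09 ± 0.09, adjusted p = 0.43), although it was with median-ratio scaling (0.26). Its change turned negative with quantile normalization. In the tricarboxylic acid cycle 10 of 18 rose and 1 fell, and 6 rose without the 7 muscle-rich libraries, with Sdha up by 0.36 ± 0.09 (adjusted p = 0.00089) and Dlst by 0.41 ± 0.07 (adjusted p = 8.9e-06), while Cs and Idh3a were not called (changes of 0.22 and 0.02), although Cs was with median-ratio scaling (0.38). With quantile normalization Sdha was not called, and the changes of Cs and Idh3a turned negative.

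Respiratory chain counts rested on the scaling and on the muscle-rich libraries. Of 29 nuclear genes of complex I 8 rose and 0 fell with the deposited values, 22 rose with median-ratio scaling, and 2 rose without the 7 muscle-rich libraries. Among all genes 11.6% rose, and 20.8% with median-ratio scaling. Of 32 of complexes III to V 8 rose and 1 fell, 23 rose and 0 fell with median-ratio scaling, and 4 rose and 1 fell without those libraries. Ndufs8 rose by 0.62 ± 0.11 (adjusted p = 1.5e-05) and Cox6a1 by 0.52 ± 0.12 (adjusted p = 0.00053), whereas Ndufv1 (0.05 ± 0.10, adjusted p = 0.7) and Atp5b (0.15 ± 0.12, adjusted p = 0.31) were not called. Atp5b was called higher with median-ratio scaling (0.32), but the changes of Atp5b and Ndufv1 turned negative with quantile normalization. Of 7 genes of the mitochondrial genome tested 2 rose, 6 with median-ratio scaling. ND4L rose from 14420 to 23340 RPKM at 30 °C to 24320 to 36710 RPKM at 20 °C (0.60 ± 0.18, adjusted p = 0.0065; 0.50, adjusted p = 0.16, without the muscle-rich libraries), and COX1 had medians of 26400 and 24000 RPKM (0.14 ± 0.16, adjusted p = 0.53). With quantile normalization ND4L was not called and the change of COX1 turned negative. The library protocol selects mRNA by a stranded kit and the ND5 and ND6 rows held nearly equal values, so single genes of the mitochondrial genome are uncertain.

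Heat-producing cycles that do not need Ucp1 showed 0 of 14 genes higher and 3 lower, a smaller share than the 33.0% of all genes. With median-ratio scaling 3 were lower too, a share near the 20.8% of all genes. Ckb, the creatine kinase of the creatine cycle in mouse brown fat, fell from 13.0 to 46.2 RPKM at 30 °C to 4.35 to 11.5 RPKM at 20 °C (-1.53 ± 0.19, adjusted p = 1.5e-08). Slc6a8, the creatine transporter, fell by 0.89 ± 0.13 (adjusted p = 1.8e-07), and Atp2a2, the SERCA2 calcium pump, from a median of 117.2 to 54.0 RPKM (-1.06 ± 0.11, adjusted p = 1.1e-10). None of these 3 overlapped between the groups, against 13.1% of all genes with every library lower at 20 °C. Gatm and Gamt, which make creatine, and Alpl were not called (changes of -0.25, -0.07 and -0.07). Ckm and Ckmt2 are also muscle genes, and Ckm ran from 16.5 to 582.3 RPKM within the 20 °C group alone.

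The integrated stress response, in which Atf4 turns on amino acid and folate genes when translation initiation is restrained, had 1 of 17 genes higher and 9 lower at 20 °C (median change -0.39), with 5 lower without the 7 muscle-rich libraries. The shares of all genes were 11.6% higher and 33.0% lower. Atf4 lay between 67.8 and 97.1 RPKM at 20 °C and between 107.9 and 162.9 RPKM at 30 °C (-0.76 ± 0.10, adjusted p = 5.9e-08). Atf5, its partner in the mitochondrial stress response, fell by 0.76 ± 0.13 (adjusted p = 8.5e-06), and Atf3 by 1.13 ± 0.26 (adjusted p = 0.0004; -0.81, adjusted p = 0.053, without those libraries). The secreted stress factor Gdf15 was at 0 to 0.425 RPKM at 20 °C and at 1.36 to 20.6 RPKM at 30 °C (-2.25 ± 0.35, adjusted p = 9.3e-07), with a wide spread at 30 °C. Fgf21 stayed low in both groups, with medians of 0.259 and 0.990 RPKM (-0.59 ± 0.22, adjusted p = 0.028), and it was not called without the muscle-rich (adjusted p = 0.13) or the 2 B cell-rich libraries (adjusted p = 0.094). Ddit3 (CHOP) and Trib3 were not called (-0.18 ± 0.18 and -0.28 ± 0.19, adjusted p = 0.42 and 0.24). The riser was Eif4ebp1, which restrains cap-dependent translation, from a median of 88.7 to 132.9 RPKM (0.66 ± 0.10, adjusted p = 7.8e-07).

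Among enzymes of serine and folate metabolism, many of them Atf4 targets, 10 of 14 fell and 2 rose (median change -0.48). The shares of all genes were 33.0% lower and 11.6% higher. Mthfd2, the mitochondrial folate dehydrogenase, fell from 2.70 to 17.2 RPKM at 30 °C to 0.668 to 1.49 RPKM at 20 °C (-1.92 ± 0.21, adjusted p = 3.4e-10). Pck2, the mitochondrial phosphoenolpyruvate carboxykinase, fell from a median of 15.4 to 6.86 RPKM (-1.03 ± 0.11, adjusted p = 8.3e-11), Shmt1 from 29.3 to 15.4 RPKM (-0.84 ± 0.12, adjusted p = 9.8e-08), and Psat1 from 4.99 to 2.82 RPKM (-0.80 ± 0.18, adjusted p = 0.00023). Psat1 was not called without the 7 muscle-rich libraries. The 2 risers, named after their values were seen, were Aldh1l1, the cytosolic formyl-folate dehydrogenase (1.66 ± 0.25, adjusted p = 4.6e-07), and Psph, which releases serine (0.76 ± 0.12, adjusted p = 9.0e-07). Of 12 amino acid transporters 1 rose and 2 fell: Slc1a5, the glutamine carrier, rose by 0.63 ± 0.15 (adjusted p = 0.00079), and Slc7a1 and Slc7a5 fell by 0.95 ± 0.13 and 0.32 ± 0.13 (adjusted p = 5.0e-08 and 0.038). Slc7a5 lost its call without the 7 muscle-rich or the 2 B cell-rich libraries and with quantile normalization.

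Chaperones and enzymes of the endoplasmic reticulum fell together: 16 of 22 were lower and 1 higher, 12 and 2 with median-ratio scaling, and for 9 every library at 20 °C lay below every library at 30 °C, against 13.1% of all genes. Among all genes 33.0% were lower and 11.6% higher, and 20.8% each way with median-ratio scaling. Hspa5 (BiP), the main chaperone, lay between 99.4 and 112.7 RPKM at 20 °C and between 132.1 and 154.6 RPKM at 30 °C (-0.41 ± 0.06, adjusted p = 8.2e-08). Canx, calnexin, fell from a median of 102.8 to 66.9 RPKM (-0.63 ± 0.06, adjusted p = 1.2e-11), and Syvn1, a ubiquitin ligase that clears misfolded proteins, from 17.5 to 11.2 RPKM (-0.60 ± 0.07, adjusted p = 9.9e-10). Hsp90b1 and Creld2 fell by 0.42 ± 0.10 and 0.48 ± 0.09 (adjusted p = 0.00082 and 9.8e-06). Xbp1, a transcription factor of the unfolded protein response, fell by 0.43 ± 0.13 (adjusted p = 0.0069), and was not called with median-ratio scaling (-0.27). Neither Hsp90b1 nor Xbp1 was called without the 7 muscle-rich libraries. Pdia4 and Dnajb9 were not called. The only riser was Herpud1, which links the ubiquitin ligase to its substrates, from 25.2 to 32.9 RPKM at 30 °C to 47.5 to 75.9 RPKM at 20 °C (1.07 ± 0.09, adjusted p = 9.9e-14).

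The endoplasmic reticulum stress element, bound by Atf6 together with NF-Y, reads CCAAT, 9 bases of any kind and CCACG. It was searched on both strands of the 250 bases before each start site in RefSeq windows of the build GRCm38.p6. Of the 19 members with a window, out of 22, 9 held it (47.4%), against 33 of 27025 windows (0.122%). Of these 9, 7 fell and 0 rose, and of the 10 without it 6 fell and 1 rose. The windows shown are those of 5 genes picked because they fell and hold the element. Each is read 5′ to 3′ on the strand of its gene with the element in capitals, which appears in the reverse orientation in Creld2 and in both orientations in Hsp90b1.
Hspa5, chr2:34771994-34772073, plus strand: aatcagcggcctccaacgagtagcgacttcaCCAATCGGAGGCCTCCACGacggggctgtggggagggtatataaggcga
Canx, chr11:50325770-50325849, minus strand: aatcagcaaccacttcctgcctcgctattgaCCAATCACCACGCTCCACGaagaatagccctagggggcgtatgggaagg
Syvn1, chr19:6046501-6046575, plus strand: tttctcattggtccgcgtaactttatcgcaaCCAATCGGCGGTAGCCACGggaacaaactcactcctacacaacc
Creld2, chr15:88819489-88819568, plus strand: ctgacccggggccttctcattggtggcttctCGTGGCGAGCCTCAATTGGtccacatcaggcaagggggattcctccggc
Hsp90b1, chr10:86705528-86705661, minus strand: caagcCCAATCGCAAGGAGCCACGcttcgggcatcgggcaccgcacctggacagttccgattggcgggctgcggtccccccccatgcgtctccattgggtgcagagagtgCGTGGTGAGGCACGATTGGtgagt

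**Figure D4:**
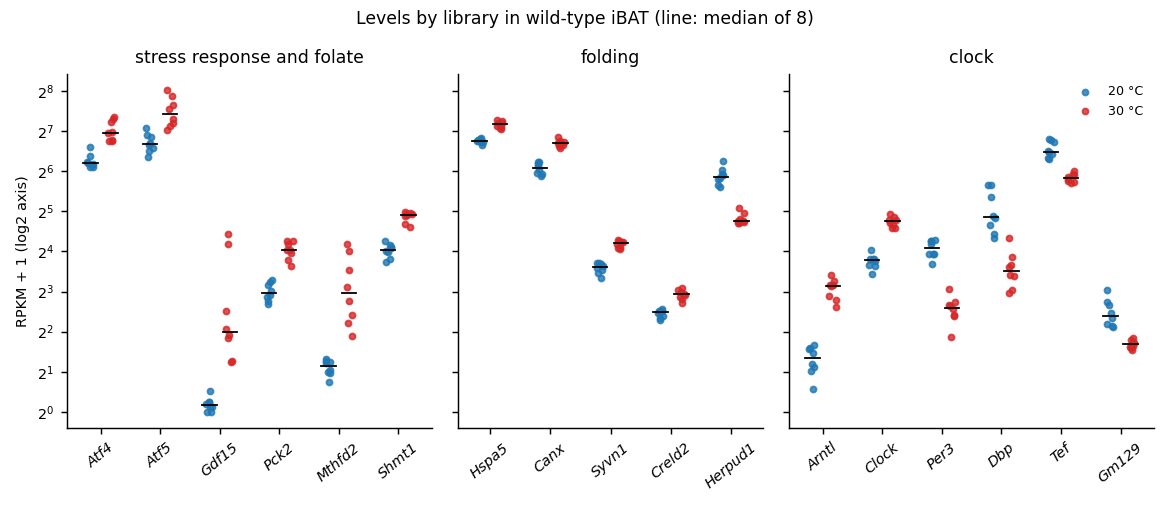
Levels by library (RPKM + 1 on a log2 axis, line at the median of 8) of genes of the stress response and folate metabolism, of protein folding and of the clock in wild-type iBAT on control diet. Herpud1 is the only folding gene of the 5 drawn that lies higher at 20 °C, and Arntl and Clock lie lower while Per3, Dbp, Tef and Gm129 lie higher.

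Of 26 heme and redox genes 4 were higher and 6 lower, against 11.6% and 33.0% of all genes. With median-ratio scaling 7 were higher and 6 lower, against 20.8% each way. Hmox1 (Entrez gene 15368), heme oxygenase 1, which breaks heme down to iron, biliverdin and carbon monoxide, lay between 9.30 and 19.7 RPKM at 20 °C (median 14.6) and between 82.7 and 285.5 RPKM at 30 °C (median 138.6). The ratio of means was 11.1 and the change was -3.31 ± 0.22 (adjusted p = 1.7e-16). The iron storage subunit Ftl1 fell by 0.82 ± 0.13 (adjusted p = 8.1e-07) and the transferrin receptor Tfrc, which brings iron in, by 1.04 ± 0.14 (adjusted p = 4.4e-08), both without overlap. Srxn1, Txnrd1 and Gclc, antioxidant targets of the factor Nfe2l2, fell by 0.98 ± 0.19, 0.66 ± 0.11 and 0.56 ± 0.11 (adjusted p = 4.6e-05, 5.4e-06 and 3.8e-05). Nfe2l2 itself rose from 23.4 to 29.8 RPKM at 30 °C to 33.8 to 38.7 RPKM at 20 °C (0.43 ± 0.08, adjusted p = 2.0e-05). The antioxidant element TGACNNNGC, on either strand, was searched in the 250 bases before the start site. It was present in 5 of 21 members of the list with a window (23.8%), against 10.1% of all windows. Among these 5 genes 1 rose and 0 fell, and among the 16 without it 1 rose and 4 fell. Alas1, the first enzyme of heme synthesis, and Fth1 were not called (changes of 0.08 and -0.07). Hmox1 is also made by macrophages, whose 25 markers summed to 137.2 to 181.8 RPKM at 20 °C and 296.1 to 485.0 RPKM at 30 °C. Their part in the Hmox1 result was not tested.

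Ptgds (Entrez gene 19215), prostaglandin D2 synthase, fell more than any other gene that met the rule for naming. It lay between 0.258 and 2.96 RPKM at 20 °C (median 1.88) and between 28.9 and 104.2 RPKM at 30 °C (median 55.7), a ratio of means of 32.0 and a change of -4.37 ± 0.31 (adjusted p = 1.5e-15). On the high fat diet at 30 °C its median was 3.03 RPKM, close to the 20 °C level and not to that of the control diet at 30 °C. Of the 14 genes of the prostaglandin pathway, Ptgds included, 1 rose and 4 fell, and 3 rose with median-ratio scaling. With the deposited values the shares that rose and fell were not above the 11.6% and 33.0% of all genes. With median-ratio scaling 4 fell, a share above the 20.8% of all genes, and the share that rose was near 20.8%. Ptger3, an inhibitory receptor for prostaglandin E2, rose from a median of 3.89 to 10.9 RPKM (1.30 ± 0.14, adjusted p = 4.9e-10), and Ptger4, a stimulatory receptor, fell from 3.21 to 0.941 RPKM (-0.99 ± 0.13, adjusted p = 1.8e-08). Ptgs1 and Pla2g4a, at the head of the pathway, were not called (changes of -0.05 and -0.07).

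Genes of the stroma were lower at 20 °C. Of 31 genes of the extracellular matrix 27 fell and 0 rose, with a median change of -0.67, and 24 fell with median-ratio scaling. Among all genes 33.0% fell, and 20.8% with median-ratio scaling. The basement membrane collagen Col4a1 lay between 49.1 and 58.9 RPKM at 20 °C and between 135.6 and 163.5 RPKM at 30 °C (-1.46 ± 0.11, adjusted p = 1.1e-14), and its partner Col4a2 fell by 1.23 ± 0.10 (adjusted p = 3.5e-14). The fibrillar collagens fell too, Col1a1 by 1.01 ± 0.24 (adjusted p = 0.00052) and Col3a1 by 1.05 ± 0.21 (adjusted p = 6.5e-05), with Col1a1 at 68.3 RPKM in library 19 and at a median of 21.9 RPKM at 30 °C. Sparc, a collagen-binding protein, fell from a median of 420.5 to 293.3 RPKM (-0.50 ± 0.10, adjusted p = 3.2e-05). The matrix list summed to 894.8 to 1171 RPKM at 20 °C and 1431 to 2408 RPKM at 30 °C. Of 11 fibroblast and preadipocyte markers 6 fell and 1 rose, with 3 lower without the 7 muscle-rich libraries, Pdgfra falling by 0.57 ± 0.16 (adjusted p = 0.0028; -0.51, adjusted p = 0.062, without them) and Cd34 by 0.79 ± 0.13 (adjusted p = 1.4e-06). The exception was Vim, the intermediate filament vimentin, which is also made by endothelial cells and by lipid-laden adipocytes. It rose from 134.7 to 176.3 RPKM at 30 °C to 288.3 to 382.8 RPKM at 20 °C (1.09 ± 0.12, adjusted p = 4.5e-10).

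Macrophage and antigen presentation genes were lower. Of 25 macrophage markers 18 fell and 0 rose, and 14 fell with median-ratio scaling and 11 without the 7 muscle-rich libraries. Among all genes 33.0% fell, and 20.8% with median-ratio scaling. For 14 markers every library at 20 °C lay below every library at 30 °C, against 13.1% of all genes. Lyz2, lysozyme, lay between 26.0 and 39.1 RPKM at 20 °C and between 65.5 and 113.4 RPKM at 30 °C (-1.35 ± 0.29, adjusted p = 0.00016), Ctss, a lysosomal protease, fell by 1.86 ± 0.32 (adjusted p = 5.8e-06), and Mpeg1, a pore protein of phagocytes, by 1.57 ± 0.27 (adjusted p = 6.5e-06). Csf1r, Cd163 and Mrc1, markers of resident macrophages, fell by 0.63 ± 0.25, 0.50 ± 0.19 and 0.52 ± 0.20 (adjusted p = 0.036, 0.031 and 0.032). None of these 3 was called with median-ratio scaling or without the 7 muscle-rich libraries. Of 11 genes of antigen presentation 9 fell and 0 rose under both scalings, against 33.0% and 20.8% lower among all genes. The class II chain H2-Aa had medians of 40.7 and 90.2 RPKM (-1.22 ± 0.22, adjusted p = 1.6e-05) and its chaperone Cd74 of 52.8 and 122.7 RPKM (-1.22 ± 0.24, adjusted p = 3.7e-05). B2m, of class I, fell by 0.72 ± 0.12 (adjusted p = 3.0e-06); H2-K1 and H2-D1 share reads with near-identical genes and are uncertain. Of 23 interferon response genes 7 fell and 0 rose with the deposited values, and 4 fell without the 7 muscle-rich libraries. The share that fell with the deposited values was below the 33.0% of all genes. With median-ratio scaling 7 fell too, a share above the 20.8% of all genes. Bst2 fell by 0.98 ± 0.18 (adjusted p = 1.4e-05), while Isg15 and Ifit1 were not called (changes of -0.41 and -0.46). Of 12 T and NK cell markers 5 fell, all from low levels, against 33.0% of all genes. Without the 2 B cell-rich libraries 2 fell, and without the 7 muscle-rich libraries 1. The list summed to 2.59 to 3.83 RPKM at 20 °C and 5.37 to 18.9 RPKM at 30 °C, with the highest sums in the B cell-rich libraries 21 (18.9) and 18 (13.7). Among 6 B cell markers Ighm alone was called (-1.36 ± 0.55, adjusted p = 0.039), and it was not called with median-ratio scaling or without either set of libraries; Cd79a was not called.

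Of 17 endothelial genes 11 were lower and 1 higher, 6 and 2 with median-ratio scaling and 7 and 0 without the 7 muscle-rich libraries. The shares of all genes were 33.0% and 11.6%, and 20.8% each way with median-ratio scaling. Cldn5, the tight junction claudin of endothelium, fell from 15.4 to 34.7 RPKM at 30 °C to 3.59 to 9.05 RPKM at 20 °C (-1.81 ± 0.19, adjusted p = 1.4e-10). Pecam1 fell by 0.58 ± 0.10 (adjusted p = 7.6e-06) and the VEGF receptor Kdr by 0.54 ± 0.10 (adjusted p = 1.5e-05). Flt1, the decoy VEGF receptor, rose by 0.31 ± 0.11 (adjusted p = 0.023; 0.30, adjusted p = 0.1, without them), and Vegfa, the growth factor made by adipocytes, fell by 0.39 ± 0.09 (adjusted p = 0.00056) and was not called with median-ratio scaling (-0.23). Of 8 mural cell and smooth muscle markers 4 fell, 2 without the muscle-rich libraries, among them Tagln (-0.50 ± 0.12, adjusted p = 0.00046), and Rgs5 of pericytes was not called. The Schwann cell marker Mbp was not called (change of 0.06). Of 6 erythroid markers 0 were called, and their sum ran from 17.2 to 379.4 RPKM at 20 °C and from 70.1 to 544.3 RPKM at 30 °C. Epithelial markers were at or near 0, with Krt5 at 0 in all 16 libraries.

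Of 15 immediate early genes 10 fell and 0 rose, against 33.0% and 11.6% of all genes. Klf4 lay between 7.62 and 12.1 RPKM at 20 °C and between 17.9 and 35.6 RPKM at 30 °C (-1.30 ± 0.12, adjusted p = 1.4e-12). Jun fell by 0.97 ± 0.14 (adjusted p = 1.4e-07), and Fos, with 0.936 to 11.7 and 1.10 to 26.2 RPKM, was not called. Of 15 proliferation genes 9 fell and 0 rose from low levels, against 33.0% lower among all genes, but 2 fell without the 7 muscle-rich libraries. Mki67 fell from 0.385 to 1.52 RPKM at 30 °C to 0.0674 to 0.367 RPKM at 20 °C (-0.72 ± 0.18, adjusted p = 0.0011; -0.65, adjusted p = 0.059, without those libraries). Hormones of the adipocyte were not called: Lep (-0.31 ± 0.36, adjusted p = 0.5), Adipoq (-0.07 ± 0.15, adjusted p = 0.74) and Retn (0.03 ± 0.32, adjusted p = 0.95). Of 19 adipokines and white adipocyte genes 1 rose and 5 fell, below the 11.6% and 33.0% of all genes, and 3 fell without those libraries. With median-ratio scaling 2 rose and 4 fell, against 20.8% each way. Rbp4, the retinol carrier, rose from a median of 44.3 to 107.7 RPKM (1.27 ± 0.20, adjusted p = 1.5e-06). Nnat, neuronatin, an imprinted gene of white fat, fell from 13.4 to 65.7 RPKM at 30 °C to 1.56 to 11.2 RPKM at 20 °C (-2.53 ± 0.35, adjusted p = 7.3e-08). Npr3, the clearance receptor for natriuretic peptides, fell from 23.3 to 6.66 RPKM in the median (-1.42 ± 0.32, adjusted p = 0.00036).

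Genes of the circadian clock differed between the temperatures. The activators Clock and Arntl (Bmal1) bind E-boxes and drive the Per and Cry repressors and the output factors Dbp, Tef and Hlf, which bind D-boxes, so that activator and output RNA peak at different hours. Of 20 clock genes 8 rose and 5 fell, against 11.6% and 33.0% of all genes. With median-ratio scaling 11 rose and 5 fell, against 20.8% each way. Arntl lay between 0.497 and 2.17 RPKM at 20 °C and between 5.10 and 9.64 RPKM at 30 °C (-1.77 ± 0.14, adjusted p = 4.6e-14). Clock lay between 9.84 and 15.5 RPKM and between 23.0 and 29.6 RPKM (adjusted p = 1.5e-15 with the deposited values). In the separate fit with median-ratio scaling the change of Clock was -0.85. Npas2, the Clock relative, was at 0 to 0.129 RPKM at 20 °C and at 0.258 to 1.35 RPKM at 30 °C. The output genes Dbp and Tef and the repressor gene Gm129 (Ciart) went the opposite way. Dbp had medians of 27.9 and 10.5 RPKM (1.44 ± 0.21, adjusted p = 1.9e-07), Tef of 88.8 and 56.0 RPKM (0.70 ± 0.11, adjusted p = 2.0e-06), and Gm129 of 4.28 and 2.23 RPKM (0.77 ± 0.12, adjusted p = 1.0e-06). Hlf, also an output factor, lost its call without the 7 muscle-rich or the 2 B cell-rich libraries. Per3 lay between 11.9 and 18.5 RPKM at 20 °C and between 2.68 and 7.34 RPKM at 30 °C (1.52 ± 0.15, adjusted p = 1.3e-11). Per1, Per2 and the repressors Nr1d1 and Nr1d2 were not called (changes of -0.03, 0.25, -0.38 and 0.18), although Per2 and Nr1d2 were called higher with median-ratio scaling (0.41 and 0.34). The labels give no hour of sampling. Of the 20 clock genes 3 lay wholly higher and 4 wholly lower at 20 °C, against 4.10% and 13.1% of all genes. Arntl, Clock, Npas2, Per3, Tef and Gm129 were among these, whereas Dbp overlapped between the temperatures. The part of sampling time in this or any other result was not tested.

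The E-box CACGTG was found in the 250 bases before the start site of 5 of 16 clock genes with a window (31.2%), against 6.05% of all windows, and the D-box TTANGTAA, on either strand, in 1 of 16 (6.25%) against 2.11%. Of the 5 genes with an E-box 2 rose and 1 fell, and of the 11 without one 4 rose and 3 fell. The windows of the 2 that rose, Gm129 and Tef, and of Per3, which holds the D-box, were picked for their rise and are shown with those letters in capitals (RefSeq, GRCm38.p6, strand of the gene).
Gm129, chr3:95882262-95882349, minus strand: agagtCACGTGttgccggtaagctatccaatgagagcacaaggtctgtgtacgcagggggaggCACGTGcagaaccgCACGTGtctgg
Tef, chr15:81802508-81802587, plus strand: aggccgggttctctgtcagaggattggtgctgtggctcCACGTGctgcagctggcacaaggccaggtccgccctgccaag
Per3, chr4:151044804-151044883, minus strand: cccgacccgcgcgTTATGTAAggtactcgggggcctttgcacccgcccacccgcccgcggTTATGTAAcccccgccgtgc

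Several of the largest changes lay outside these pathways. Gmpr, GMP reductase of purine salvage, lay between 28.4 and 101.2 RPKM at 20 °C and between 470.3 and 824.3 RPKM at 30 °C (-3.37 ± 0.26, adjusted p = 3.0e-14). Cntfr, the receptor subunit for ciliary neurotrophic factor, lay between 5.53 and 10.2 RPKM and between 59.3 and 85.4 RPKM (-3.03 ± 0.16, adjusted p = 9.7e-20). Cldn1, a tight junction claudin, fell from a median of 28.6 to 2.35 RPKM (-3.06 ± 0.24, adjusted p = 3.0e-14). Cars2, the mitochondrial cysteinyl-tRNA synthetase, fell from 86.0 to 11.2 RPKM (-2.83 ± 0.18, adjusted p = 1.5e-16), the kinase Sgk2 from 21.5 to 2.16 RPKM (-2.93 ± 0.20, adjusted p = 1.5e-15), the mitochondrial carrier Slc25a34 from 36.7 to 9.05 RPKM (-2.17 ± 0.22, adjusted p = 6.0e-11), and the matrix protease Adamts1 from 17.5 to 3.21 RPKM (-2.14 ± 0.11, adjusted p = 7.7e-20). Among the 12 largest rises 5 lay outside the lists: Ttc25, a ciliary dynein docking protein (median 7.01 against 0.602 RPKM), the tubulin-binding Tppp (20.0 against 4.10), Adprhl1 (5.71 against 0.727), the plasma protein Orm3 (26.8 against 6.31) and the endosomal sorting receptor Sorl1 (9.17 against 1.59). Their changes lay between 1.91 and 2.36. No group overlapped with its counterpart in any of these 12 genes, but they were picked for large changes in these same libraries, which makes overlap unlikely. Among all genes 4.10% lay wholly higher at 20 °C and 13.1% wholly lower.

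The temperature response of wild-type iBAT was set against that of Ucp1-KO iBAT and of wild-type iWAT, and both comparisons share the 16 wild-type iBAT libraries. Genes picked for their difference were drawn only from those called in wild-type iBAT, not from all genes tested. Ucp1 RNA was present in the libraries labelled Ucp1-KO at 866.6 to 1145 RPKM at 20 °C and at 564.5 to 1112 RPKM at 30 °C, below every wild-type iBAT library. The difference between the responses (Ucp1-KO minus wild-type) was positive for 1761 genes, 11.9% of those tested, and negative for 6001, 40.5%. Its median over all genes was -0.24, and the split moved with the scaling, from 22.7% positive among the calls to 46.8% with median-ratio scaling. Ptgds had the largest positive difference of the genes named: in Ucp1-KO iBAT it was high at 20 °C (28.5 to 111.1 RPKM) and low at 30 °C (1.02 to 4.21 RPKM), the reverse of wild-type, a difference of 8.64 (adjusted p = 3.7e-20). Cntfr, Sgk2 and Ppargc1a changed by 1.32, 1.60 and 0.93 in Ucp1-KO iBAT, with differences of 4.35, 4.52 and 3.19 (adjusted p = 5.0e-20, 1.5e-16 and 3.1e-10). Ppargc1a had medians of 67.9 RPKM at 20 °C and 34.2 RPKM at 30 °C in Ucp1-KO iBAT. Acot2 reached a median of 192.2 RPKM at 20 °C in Ucp1-KO iBAT against 48.8 RPKM at 30 °C (difference 3.32, adjusted p = 5.5e-15), and the ubiquitin ligase Trim2 and the adipose regulator Wdtc1 differed by 1.73 and 1.70 (adjusted p = 9.4e-18 and 1.1e-13). In the other direction, Vim had medians of 120.4 and 483.8 RPKM in Ucp1-KO iBAT, a difference of -2.95 (adjusted p = 3.2e-18). The lysosomal Gm2a and Cpq, the bile acid enzyme Hsd3b7, the co-receptor Nrp1 and Nfe2l2 differed by -1.52, -1.10, -1.64, -0.94 and -1.26 (adjusted p = 6.0e-12, 1.4e-12, 2.2e-13, 1.1e-13 and 6.7e-12).

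Fasn and Acly were higher at 20 °C in both genotypes. Fasn changed by 1.85 in Ucp1-KO iBAT and by 3.01 in wild-type (difference -1.16, adjusted p = 0.019, but -0.90, adjusted p = 0.077, with median-ratio scaling), and Acly by 2.38 and 2.96 (difference -0.58, adjusted p = 0.19). Irf4, high at 20 °C in wild-type, had medians of 2.64 and 4.85 RPKM in Ucp1-KO iBAT (difference -2.58, adjusted p = 2.9e-07). Fgf21, near 0 in wild-type, reached 17.2 to 54.0 RPKM in Ucp1-KO iBAT at 20 °C (difference 3.22, adjusted p = 3.6e-11). Hmox1 was lower at 20 °C in both, by 3.31 and 3.79, and the difference of -0.48 was not called (adjusted p = 0.18). In Fgf21 a C/EBP-ATF element, TGATGNAAT on either strand, lies before the start site, in reverse orientation and in capitals; it was found in 2 of 16 stress response genes with a window (12.5%) and in 0.825% of all windows.
Fgf21, chr7:45615587-45615666, minus strand: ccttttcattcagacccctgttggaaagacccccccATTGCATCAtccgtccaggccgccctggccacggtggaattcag

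**Figure D5:**
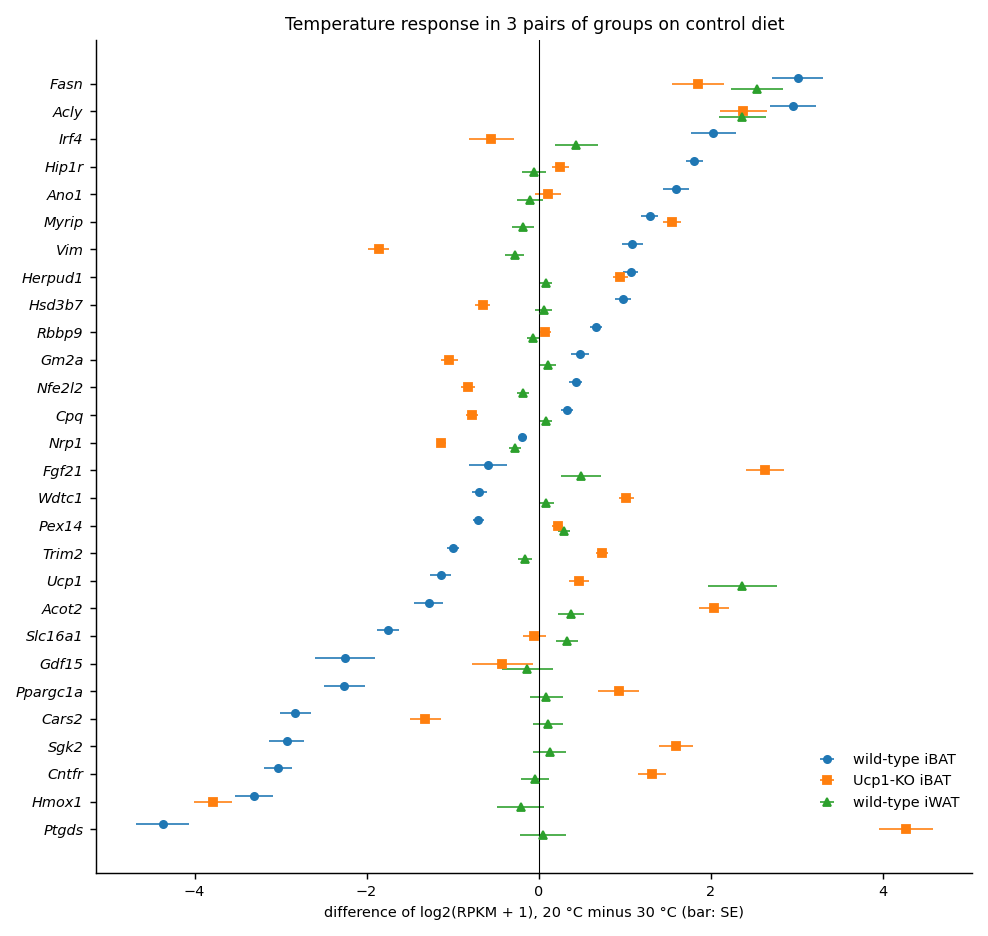
Change with temperature (difference of log2(RPKM + 1), 20 °C minus 30 °C, bar for the SE, 8 libraries against 8) of 28 genes in wild-type iBAT (circles), Ucp1-KO iBAT (squares) and wild-type iWAT (triangles), all on control diet. Ptgds stands at -4.37 in wild-type iBAT and at 4.27 in Ucp1-KO iBAT, and Fasn and Acly stand to the right of 0 in all 3.

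In wild-type iWAT, the response differed from that of wild-type iBAT (iWAT minus iBAT) positively for 1911 of 16310 genes, 11.7%, and negatively for 827, 5.07%. Ptgds, Cntfr, Sgk2 and Cars2, which fell in iBAT, changed by 0.05, -0.04, 0.13 and 0.11 in iWAT, where their levels were low: Ptgds stayed at or below 1.53 RPKM there, and the differences were 4.42, 2.99, 3.06 and 2.94 (adjusted p = 1.6e-15, 3.9e-19, 1.6e-15 and 1.8e-17). The lactate transporter Slc16a1 fell from a median of 264.1 to 76.7 RPKM in iBAT. In iWAT its medians were 17.1 RPKM at 20 °C and 12.6 RPKM at 30 °C (difference 2.08, adjusted p = 1.2e-14). The peroxisomal import factor Pex14 differed by 0.99 (adjusted p = 4.2e-14). Herpud1, which rose in iBAT, had medians of 47.5 RPKM at 20 °C and 45.7 RPKM at 30 °C in iWAT (difference -0.99, adjusted p = 1.0e-10). The endocytic adaptor Hip1r, the chloride channel Ano1, the Rab effector Myrip and the hydrolase Rbbp9 also rose in iBAT and changed by -0.05, -0.10, -0.18 and -0.07 in iWAT (adjusted p of the differences 1.9e-11, 1.1e-09, 6.4e-10 and 2.5e-09). Vim differed by -1.37 (adjusted p = 4.0e-11). Fasn changed by 2.54 in iWAT against 3.01 in iBAT, and Acly by 2.37 against 2.96, with differences that were not called (adjusted p = 0.52 and 0.31). Ucp1 ran the opposite way in the depots, with medians of 97.1 RPKM at 20 °C and 14.9 RPKM at 30 °C in iWAT (difference 3.51, adjusted p = 1.5e-06). The iWAT groups overlapped for Ucp1, with 23.9 to 280.7 RPKM at 20 °C and 4.66 to 116.9 RPKM at 30 °C.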

How the data were processed

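The deposited table holds 1 value per transcript (168326) and library (96). The values were read as RPKM, a unit inferred from the deposited values and not stated by the authors: 95.03 to 95.42% of the low values of each of the 16 libraries (up to 20 reads) came out as whole reads within 0.05 of a read once length and depth were divided out. Bases were called and reads sorted with CASAVA and bcl2fastq, per the submitters' processing notes, after stranded mRNA library preparation, per the labels' protocols. Which aligner and which genome build were used is not given in the sources used here. Of all transcripts 13.76% carry no gene ID and were left out. A gene was represented by its transcript with the highest mean over the 96 libraries, since 17.02% of symbols with several transcripts list identical values for them.

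Genes that reached 0.5 RPKM in 8 or more libraries were tested with limma 3.58.1 (R 4.3.3, trend) on log2(RPKM + 1), a scale that understates changes of low genes, with Benjamini-Hochberg adjustment at 0.05. The fit held 48 iBAT libraries in 6 groups; interactions with tissue used 96 libraries in 12 groups. The fit was tested on simulated data. The precision of a low value is set by the read number given with the libraries.

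The gene lists hold 688 symbols, of which 7 were matched by gene ID and 8 are absent; some members are counted but not reported by name here. Genes named are the anchors of each list, the 4 smallest p-values of each list, and the 12 largest rises and falls among called genes with at least 5 RPKM. For each interaction the 6 smallest p-values each way are named, drawn only from genes called in wild-type iBAT with at least 5 RPKM. Predicted and unnamed genes were left out of the largest changes and of the interactions. Other genes named are marked. The members and lists were chosen with earlier results of these data known. Promoter windows come from the RefSeq table of GRCm38.p6. Alternatives were only the 16 libraries, another pseudocount (0.1), median-ratio scaling, quantile normalization, no filter, a filter of 5 RPKM and the sum of transcripts. The RefSeq transcript and the leaving out of muscle-rich or B cell-rich libraries were chosen after seeing the data.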

Additional observations from a re-analysis of the deposited data

Results flagged for a closer look

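In 16 of 458 groups of 8 libraries, for 229 genes, a single library lay farther from its nearest neighbour than Dixon's 95% limit for 8 values allows, which chance alone passes in about 1 in 20 groups. The highest library at 20 °C stood apart for Cldn1 (4.06 RPKM in library 1, next 2.49) and Mrc1 (7.39 RPKM in library 3, next 5.51). The highest library at 30 °C stood apart for Aacs (19.2 RPKM in library 21, next 15.4), Alpl (15.0 RPKM in library 22, next 10.4), Cd34 (31.4 RPKM in library 19, next 22.3), Col1a1 (68.3 RPKM in library 19, next 32.4), Hoxc10 (0.0571 RPKM in library 17, next 0), Pnpla2 (1542 RPKM in library 18, next 1298), Rxrg (36.7 RPKM in library 18, next 29.9) and Tagln (45.8 RPKM in library 18, next 39.4). The lowest library at 20 °C stood apart for Acot11 (121 RPKM in library 4, next 154), Pdha1 (644 RPKM in library 6, next 753), Pla2g4a (0.0625 RPKM in library 7, next 0.232) and Rbbp9 (10.6 RPKM in library 2, next 12.5). The lowest library at 30 °C stood apart for Acot11 (36.1 RPKM in library 19, next 51.4) and Pkm (245 RPKM in library 19, next 310.2). The response to temperature differed between Ucp1-KO and wild-type iBAT (Ucp1-KO minus wild-type) in limma's interaction test for Ucp1 (1.61), Ppargc1a (3.19), Irf4 (-2.58), Ptgds (8.64), Acot2 (3.32), Cntfr (4.35), Sgk2 (4.52), Trim2 (1.73), Wdtc1 (1.70), Vim (-2.95), Hsd3b7 (-1.64), Cpq (-1.10), Gm2a (-1.52), Nfe2l2 (-1.26), Nrp1 (-0.94), Fasn (-1.16), Fgf21 (3.22) and Gdf15 (1.83), on the log2(RPKM + 1) scale. With median-ratio scaling the difference for Fasn was -0.90 and no longer called (adjusted p = 0.077). The response to temperature differed between wild-type iWAT and iBAT (iWAT minus iBAT) in limma's interaction test for Ppargc1a (2.35), Irf4 (-1.60), Ptgds (4.42), Cntfr (2.99), Sgk2 (3.06), Vim (-1.37), Cars2 (2.94), Slc16a1 (2.08), Pex14 (0.99), Herpud1 (-0.99), Hip1r (-1.86), Myrip (-1.47), Ano1 (-1.70), Rbbp9 (-0.74), Hmox1 (3.09) and Ucp1 (3.51), on the log2(RPKM + 1) scale.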

How the results depend on the processing

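Median-ratio scaling gave 3075 higher and 3076 lower genes and quantile normalization 2931 and 2966, against 1723 and 4887 with the deposited values. Leaving out the 7 muscle-rich libraries, chosen after seeing the data, gave 1114 and 2668 with fewer libraries. The median change of all genes, -0.123, was -0.176 with a pseudocount of 0.1, -0.013 with median-ratio scaling, -0.006 with quantile normalization, -0.020 with no filter and -0.171 with a filter of 5 RPKM. The difference between the genotypes' responses was positive for 3319 and negative for 3768 genes with median-ratio scaling. Of 225 genes tested and reported, 154 kept their direction and their side of the threshold under all alternatives, those added after seeing the data included. Leaving out the muscle-rich libraries lost the calls of 26 genes (Adcy3, Agpat2, Atf3, Cd163, Cidea, Cox7a1, Cox8b, Csf1r, Dio2, Elovl3, Fgf21, Flt1, Gapdh, Gpam, Gpr3, Hk2, Hlf, Hsp90b1, Ighm, Mki67, Mrc1, ND4L, Pdgfra, Psat1, Slc7a5 and Xbp1) and gained 1 (Prdm16). Median-ratio scaling lost 11 (Cd163, Csf1r, Dio2, Gapdh, Gpam, Ighm, Mrc1, Nrp1, Ppargc1b, Vegfa and Xbp1) and gained 11 (Atp5b, Cpt1b, Cs, Lipe, Mlxipl, ND5, ND6, Nr1d2, Per2, Pnpla2 and Rgs5). Quantile normalization lost 17 (Agpat2, Cd163, Cidea, Cox8b, Csf1r, Gapdh, Gpam, Gpd1, Gpr3, Ighm, Mrc1, ND4L, Nrp1, Ppargc1b, Sdha, Slc7a5 and Xbp1) and gained 6. Leaving out the 2 B cell-rich libraries lost 6 (Cd163, Csf1r, Fgf21, Hlf, Ighm and Slc7a5) and gained 1 (Prdm16). No filter lost 8 and gained 0, the sum of transcripts lost 3 (Cd163, Flt1 and Gapdh) and gained 7, the RefSeq transcript lost 2 (Flt1 and Hk2) and gained 5, the fit of only the 16 libraries lost 2 and gained 7, and the filter of 5 RPKM lost 0 and gained 3. With a pseudocount of 0.1 no call was lost or gained. The genes whose sign turned were not called with the deposited values. With the RefSeq transcript, the sign turned for Mbp (-0.09) and Rgs5 (-0.13). Without the 2 B cell-rich libraries, the sign turned for Cd79a (0.01), Ckm (-0.08) and Ckmt2 (-0.05). Without the 7 muscle-rich libraries, the sign turned for Ckmt2 (-0.02), Fos (0.35), G0s2 (0.02), Gatm (0.05), Lpl (0.06) and Nr1h3 (0.03). With median-ratio scaling, the sign turned for Adipoq (0.10), Alpl (0.08), Dnajb9 (0.00), Esrra (0.02), Fth1 (0.10), G0s2 (0.12), Gamt (0.05), Lpl (0.08), Nr1h3 (0.13), Per1 (0.13), Pparg (0.06) and Ptgs1 (0.04). With quantile normalization, the sign turned for Alpl (0.10), Atp5b (-0.25), COX1 (-0.20), Cpt1b (-0.04), Cs (-0.02), Gamt (0.05), Idh3a (-0.23), Ndufv1 (-0.09), Nr1h3 (0.06), Pck1 (-0.17), Per1 (0.13), Pla2g4a (0.02), Plin1 (-0.14), Pnpla2 (-0.02) and Ptgs1 (0.04). With the sum of transcripts, the sign turned for Mbp (-0.11) and Rgs5 (-0.02). The cause was not tested. No paired analysis was possible because the labels number each library once and no number is shared between the groups. Sequencing depth limits what can be said of genes near 0 RPKM.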
